A study of Mus musculus with 12 samples.

Results

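The 38 genes described here encode parts of 3 linked signalling routes, the AKT, ERK and mTOR pathways, in keratinocytes at the edge of a healing mouse skin wound. They were chosen by name, with earlier results of these data known but by no rule on measured values, as components of the route that the study proposed between interleukin 17 (IL-17) and the hypoxia factor HIF1a. All 38 were in the table of 55315 genes, and all 38 were among the 16677 genes with enough counts to be tested. By role they comprised 6 genes for phosphoinositide 3-kinase (PI3K) and its adaptors, 4 for AKT and FOXO, 3 for TSC and RHEB, 6 for the mTOR complexes, 4 for substrates of mTOR complex 1 (mTORC1), 9 for the relay from RAS to ERK and 6 for ERK feedback targets.

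Mouse skin was wounded, and 3 days later a ring of 0.25 mm around the wound was cut out and digested. Live Epcam+ cells positive for integrin alpha6 were sorted without CD45+, CD31+ or CD117+ cells, and were split by integrin alpha5 into A5-POS cells, taken by the study as the migrating epithelial tongue, and A5-NEG cells of the wound edge behind it. The mice were wild type (WT) or RORgt deficient, and titles of the latter libraries carry the name GFP-KI. RORgt is the transcription factor that IL-17-producing lymphocytes need. This gave 4 groups of 3 bulk RNA libraries: WT A5-NEG, WT A5-POS, RORgt-deficient A5-NEG and RORgt-deficient A5-POS. Each library came from 2 or 3 pooled mice, and all mice were wounded. As the cells were split after sorting, A5-POS and A5-NEG libraries of a genotype may share mice and are not taken as independent repeats. The sources used here do not give strain, age, sex or the cells in which the allele acts.

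Growth factors and insulin act through receptors and adaptors such as IRS2 to activate PI3K, whose lipid product brings AKT to the membrane, where it is phosphorylated. AKT holds FOXO factors out of the nucleus and inhibits the TSC complex, which frees RHEB to switch on mTORC1, the kinase complex that drives protein synthesis and restrains autophagy. In parallel, GRB2 and SOS load RAS with GTP, and RAF, MEK and ERK are phosphorylated in turn, after which ERK induces its own brakes, the Sprouty and SPRED proteins, and ETV factors. In epidermis these routes drive proliferation and migration after injury, and IL-17 can feed into them. Nearly all of these steps are changes of phosphorylation or binding, which RNA levels do not measure.

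Total counts per library were 29293687 to 74563616, and library 1 was the deepest of each group. Itga5, which encodes the sorted integrin, was at 42.2 to 52.0 and 47.4 to 61.3 counts scaled to a common library total (CPM) in the WT and RORgt-deficient A5-NEG libraries, against 85.1 to 101 and 107 to 137 CPM in the A5-POS libraries. All 7 keratinocyte markers were detected in every group. The summed level of 9 fibroblast markers was 53.1 to 498 CPM in the A5-NEG libraries, but 3730 to 8113 CPM in WT A5-POS and 9383 to 16129 CPM in RORgt-deficient A5-POS libraries. With the library number fitted as a block, all 9 rose in A5-POS cells of both genotypes (edgeR quasi-likelihood test). The WT A5-NEG library 1 had the most macrophage markers (1387 CPM summed over 9, against 81.1 to 575 elsewhere) and Langerhans and dendritic markers (3868 CPM over 6, against 298 to 1252). Summed over 10 genes, dissociation-stress transcripts were at 13088 to 19170 CPM in A5-NEG and 8541 to 13872 CPM in A5-POS libraries. The part of these cells and of this stress in the results below was not tested, and in bulk RNA fewer cells of a type cannot be told apart from less RNA per cell.

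To compare levels between genes, CPM was divided by exon length. Per kilobase of exon, the transcripts of the insulin receptor substrate Irs2 (101 CPM per kilobase as the mean of 12 libraries) and of Akt1 (96.9) had the highest means. Hras (52.3), which encodes a RAS protein, followed, then Map2k1 (40.5) for the kinase MEK1, Mapk3 (36.9) for ERK1 and the adaptor gene Grb2 (35.4). The ranges of Irs2 (52.9 to 149 over the libraries) and Akt1 (80.1 to 133) overlapped, so these neighbours did not differ beyond their spread. The order varied by group, and in WT A5-POS cells Irs2 (68.5) was close to Hras (63.9) and below Akt1 (117). Members of 1 family lay far apart. Irs1 was the lowest of all 38 (0.357), and Spry1 (28.6) was far above the other Sprouty genes Spry2 (1.29) and Spry4 (0.562). Foxo1 (12.6) stood above Foxo3 (1.66), and Akt1 above Akt2 (16.6). The mTOR kinase gene Mtor (5.76) and the genes of its partners RAPTOR (Rptor, 4.03), RICTOR (Rictor) and MLST8 (Mlst8, 4.10) formed a low, closely spaced group with overlapping ranges. In the order of the levels, neighbours whose ranges did not overlap were Akt1 with Hras and Rptor with Braf.

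**Figure D1:**
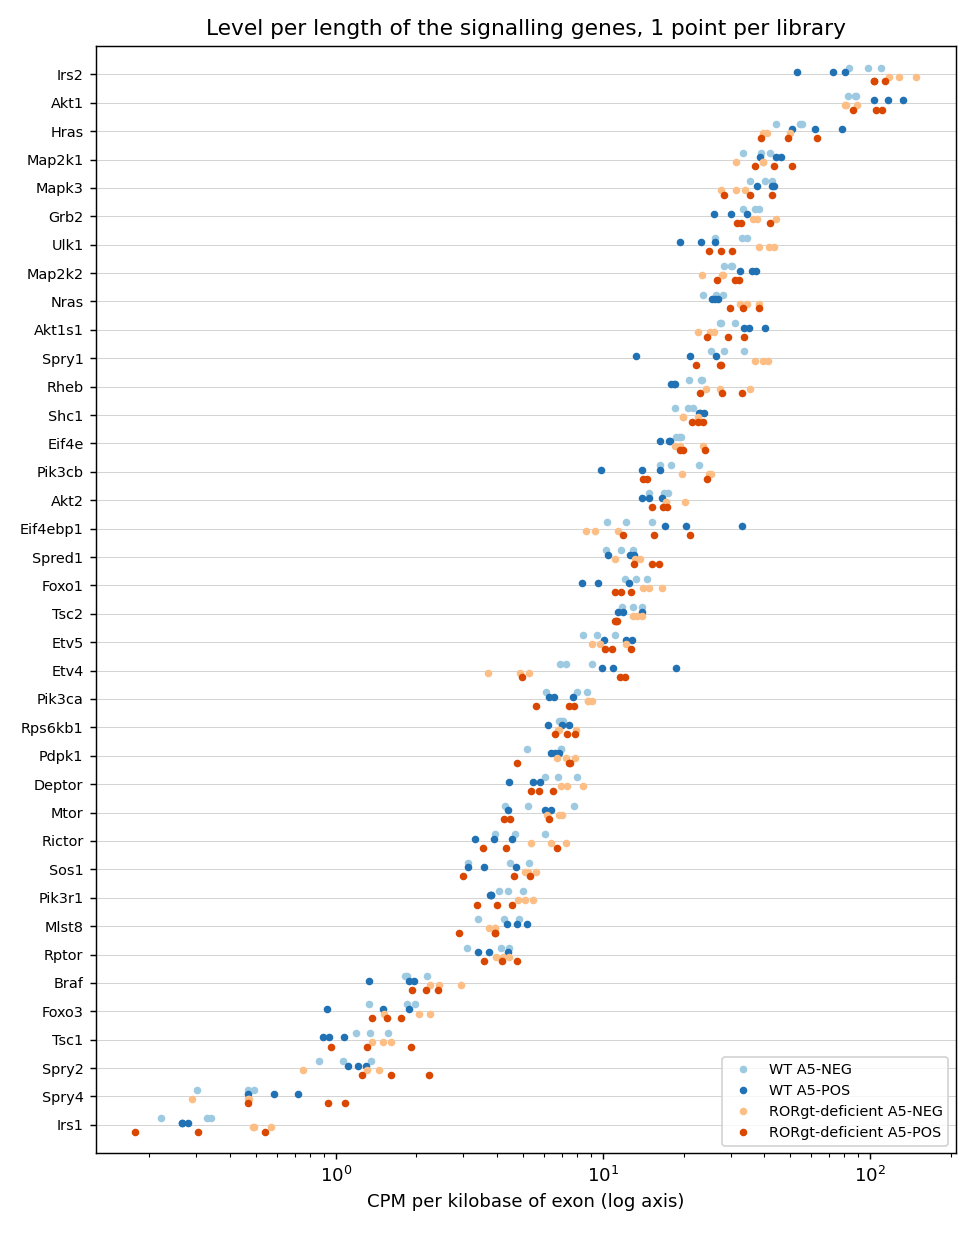
Level of each of the 38 genes in CPM per kilobase of exon (log axis), with 1 point per library, coloured by group, and genes ordered by their mean over the 12 libraries. Irs2 and Akt1 have the highest means, Irs1, Spry4 and Spry2 the lowest, and neighbouring genes overlap except Akt1 with Hras and Rptor with Braf.

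Over the 12 libraries, the sort by integrin alpha5 took the largest share of the sum of squares of log2 CPM for 15 of the 38 genes. The genotype did for 8, the library number for 8 and the residual for 7. The library number and the residual hold more degrees of freedom than the sort or the genotype, and these shares were not computed over all genes. The median shares were 26.2% for the sort, 18.5% for the genotype, 1.73% for their interaction, 20.7% for the library number and 20.8% for the residual. The sort took its largest share in Akt1 (60.9%), Deptor (59.3%), Ulk1 (56.7%) and Pik3r1 (56.7%), and the genotype in Nras (77.7%), Rheb (59.9%) and Irs2 (50.8%). For Map2k1 the library number took 61.3%. In the WT A5-NEG group, library 1 was the lowest of the 3 for 25 of the 38 genes, with no such count made over all genes. Libraries with the same number deviated together, so the fit of 4 group means was repeated with the library number added as a block. Counts of passing members are given from both fits. For single genes whose call did not differ, often only values with the block are given. Changes are log2 fold changes ± SE, and a gene passed at an adjusted p below 0.05.

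**Figure D2:**
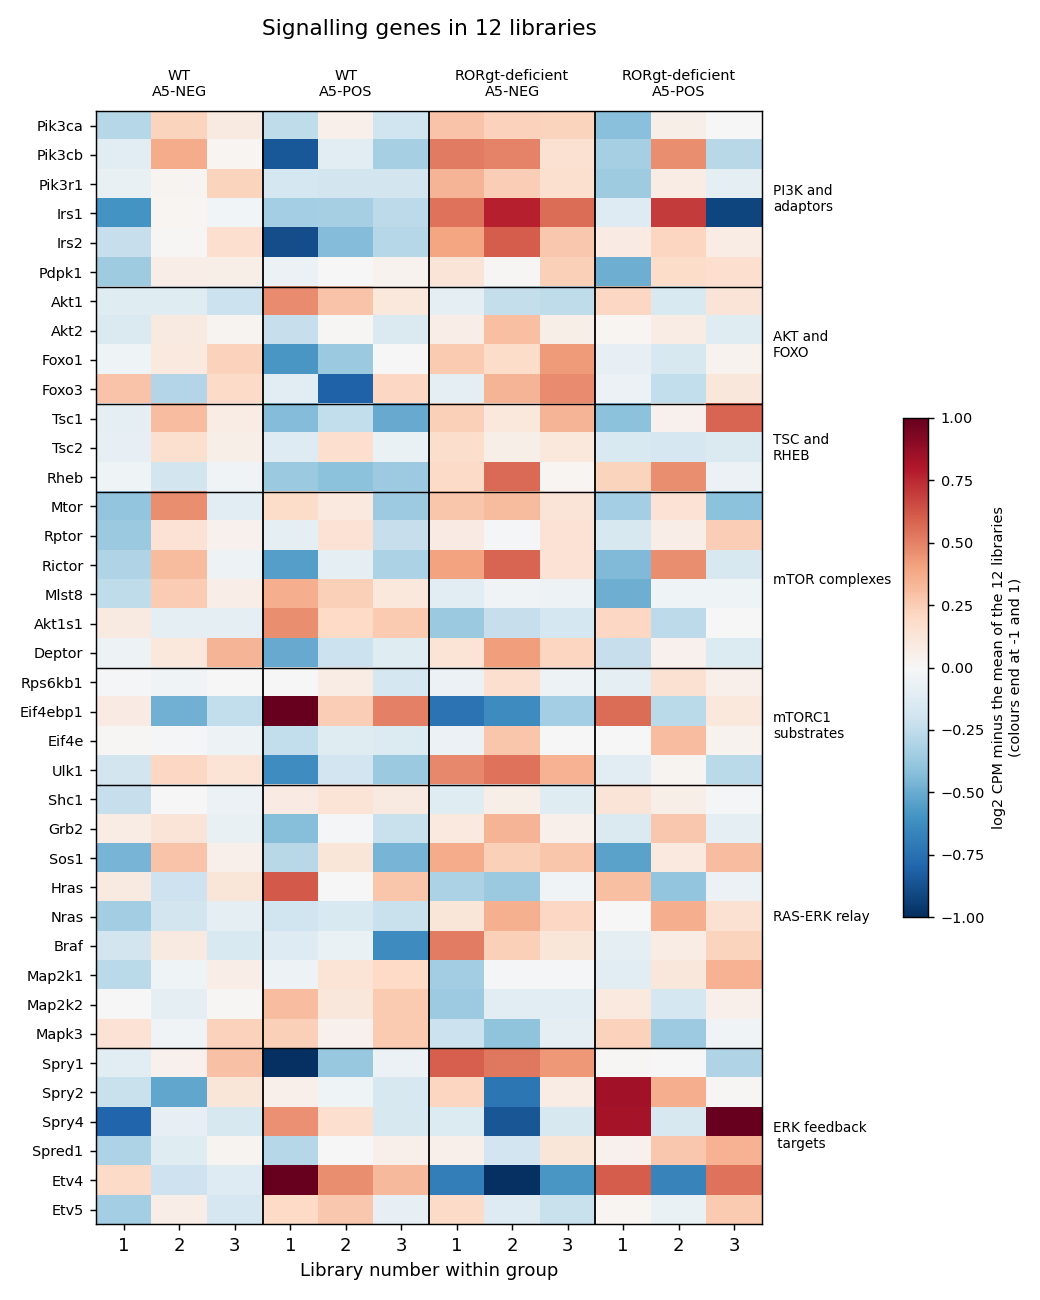
Level of each of the 38 genes in each of the 12 libraries as log2 CPM minus the gene's mean over all libraries, with genes grouped by role and colours ending at -1 and 1. Ulk1, Deptor and Spry1 are lower and Eif4ebp1, Etv4 and Akt1 higher in most A5-POS columns, and Nras and Rheb are higher in the RORgt-deficient columns.

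Promoter sequences were taken from RefSeq for the mouse build GRCm38.p6, where 33 of the 38 members had an entry, with 43 promoters. Rheb, which also passed in an edgeR fit below, had an entry but too few bases outside annotated untranslated region to be printed. The following 4 belong to Ulk1, Foxo1, Irs2 and Akt1, the other members with an entry that passed in an edgeR fit below. Each is the stretch of up to 250 bases before the start of transcription, 5′ to 3′ on the strand of the gene, without bases that are annotated as untranslated region. Capitals mark matches to 6 searched motifs on either strand: TGTTTAC (bound by FOXO factors), TCACGTGA (CLEAR element), CCGGAAGT (ETS), TGANTCA (AP-1), TGACGTCA (cyclic AMP response element) and ACGTG (core of the hypoxia response element, which TCACGTGA contains).
Ulk1 chr5:110810098-110810331, minus strand: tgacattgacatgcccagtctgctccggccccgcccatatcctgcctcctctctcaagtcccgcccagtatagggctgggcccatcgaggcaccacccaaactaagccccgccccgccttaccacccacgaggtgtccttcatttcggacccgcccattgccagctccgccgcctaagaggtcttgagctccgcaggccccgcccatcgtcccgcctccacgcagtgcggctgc
Foxo1 chr3:52268087-52268335, plus strand: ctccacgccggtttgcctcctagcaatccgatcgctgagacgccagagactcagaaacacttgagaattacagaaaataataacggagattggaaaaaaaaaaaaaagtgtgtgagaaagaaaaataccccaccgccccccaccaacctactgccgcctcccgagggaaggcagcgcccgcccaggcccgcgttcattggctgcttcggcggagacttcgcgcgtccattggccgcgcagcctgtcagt
Irs2 chr8:11008930-11009179, minus strand: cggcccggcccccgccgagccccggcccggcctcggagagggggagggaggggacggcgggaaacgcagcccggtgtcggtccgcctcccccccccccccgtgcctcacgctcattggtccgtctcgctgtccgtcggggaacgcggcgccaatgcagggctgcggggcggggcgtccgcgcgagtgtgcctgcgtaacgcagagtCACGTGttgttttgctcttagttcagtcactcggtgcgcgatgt
Akt1 chr12:112674885-112675134, minus strand: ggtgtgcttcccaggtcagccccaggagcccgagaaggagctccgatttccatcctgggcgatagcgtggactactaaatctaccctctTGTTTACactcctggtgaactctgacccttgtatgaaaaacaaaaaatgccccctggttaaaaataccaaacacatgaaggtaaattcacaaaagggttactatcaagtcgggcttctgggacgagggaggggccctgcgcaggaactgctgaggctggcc
The Akt1 stretch holds 1 match to TGTTTAC, and the Irs2 stretch holds ACGTG on both strands as 2 overlapping matches within CACGTG. No match to the 6 motifs was found in the Ulk1 and Foxo1 stretches. Among the 43 promoters of the members, TGTTTAC was found in 3 (of Akt1, Etv5 and Nras), against 3.17% of all 32851 promoters. ACGTG was found in 11 of the 43, those of Irs2, Rheb and Nras among them, against 16.6% of all promoters. CCGGAAGT was found in 4 of the 43 (of Akt1s1, Mtor, Pik3ca and Tsc2), against 2.88% of all promoters. TGANTCA was found in 2 (6.75% of all), TGACGTCA in 1 (1.55%) and TCACGTGA in 0 (0.785%). A match is a description of these letters and not a binding site. In GENCODE coordinates for GRCm38, Ulk1 spans chromosome 5, 110784488 to 110810097, minus strand, Foxo1 chromosome 3, 52268336 to 52353221, plus strand, Irs2 chromosome 8, 10984681 to 11008458, minus strand and Akt1 chromosome 12, 112653821 to 112674884, minus strand, and RefSeq places the start of Irs2 upstream of that. Of the other members below, Eif4ebp1 spans chromosome 8, 27260329 to 27276674, plus strand, Deptor chromosome 15, 55112317 to 55259271, plus strand, Etv4 chromosome 11, 101769742 to 101785371, minus strand, Rheb chromosome 5, 24802823 to 24842624, minus strand and Nras chromosome 3, 103058285 to 103067914, plus strand.

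In the blocked fit, Ulk1, Deptor and Foxo1 passed as lower and Eif4ebp1 as higher in A5-POS than in A5-NEG cells of both genotypes. Akt1 (higher) and Irs2 (lower) passed in WT mice and Etv4 (higher) in RORgt-deficient mice, each with the same direction in the other genotype. No difference between the genotypes was shown for these genes. Such calls were about as frequent among all genes, at the shares given below. The autophagy kinase gene Ulk1 was the single member that passed the test without the block, and it did so in RORgt-deficient cells. In edgeR's quasi-likelihood test with Benjamini-Hochberg adjustment over all tested genes, 0 of 38 members passed in WT cells, where 3.45% of all genes passed in either direction. In RORgt-deficient cells 1 of 38 passed, where 5.52% of all genes did. At an unadjusted p below 0.05 there were 10 of 38 members in each genotype, near the 20.5% (WT) and 21.8% (RORgt-deficient) of all genes at that level. DESeq2 called 4 of 38 in WT and 2 of 38 in RORgt-deficient cells, against 8.91% and 10.6% of the genes it tested.

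With the library number as a block, 2 members rose and 4 fell in WT cells, where 8.76% of all genes rose and 5.59% fell. In RORgt-deficient cells 2 rose and 3 fell, against 10.1% and 7.54% of all genes. Levels of A5-POS and A5-NEG libraries did not overlap for 6 members that were higher and 8 that were lower in WT A5-POS cells, where 15.9% and 9.12% of all genes were so. In RORgt-deficient cells 1 member was higher and 8 were lower without overlap, against 14.3% and 11.3% of all genes. The median change over the 38 members was -0.05 in WT and -0.11 in RORgt-deficient cells on the log2 scale, against 0.03 and 0.00 over all genes. The counts depended on single libraries. Without the block, 1 member passed in WT cells when WT A5-POS library 3 was left out, and 5 passed in RORgt-deficient cells when RORgt-deficient A5-POS library 2 was left out, but 0 when any other library of that comparison was. With the block, leaving out single libraries gave 0 to 9 members in WT and 1 to 9 in RORgt-deficient cells, and each gene below is given with the libraries without which its call was lost. The fibroblast markers, higher in A5-POS cells, and the dissociation-stress transcripts moved with the same sort, at the summed levels given above.

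**Figure D3:**
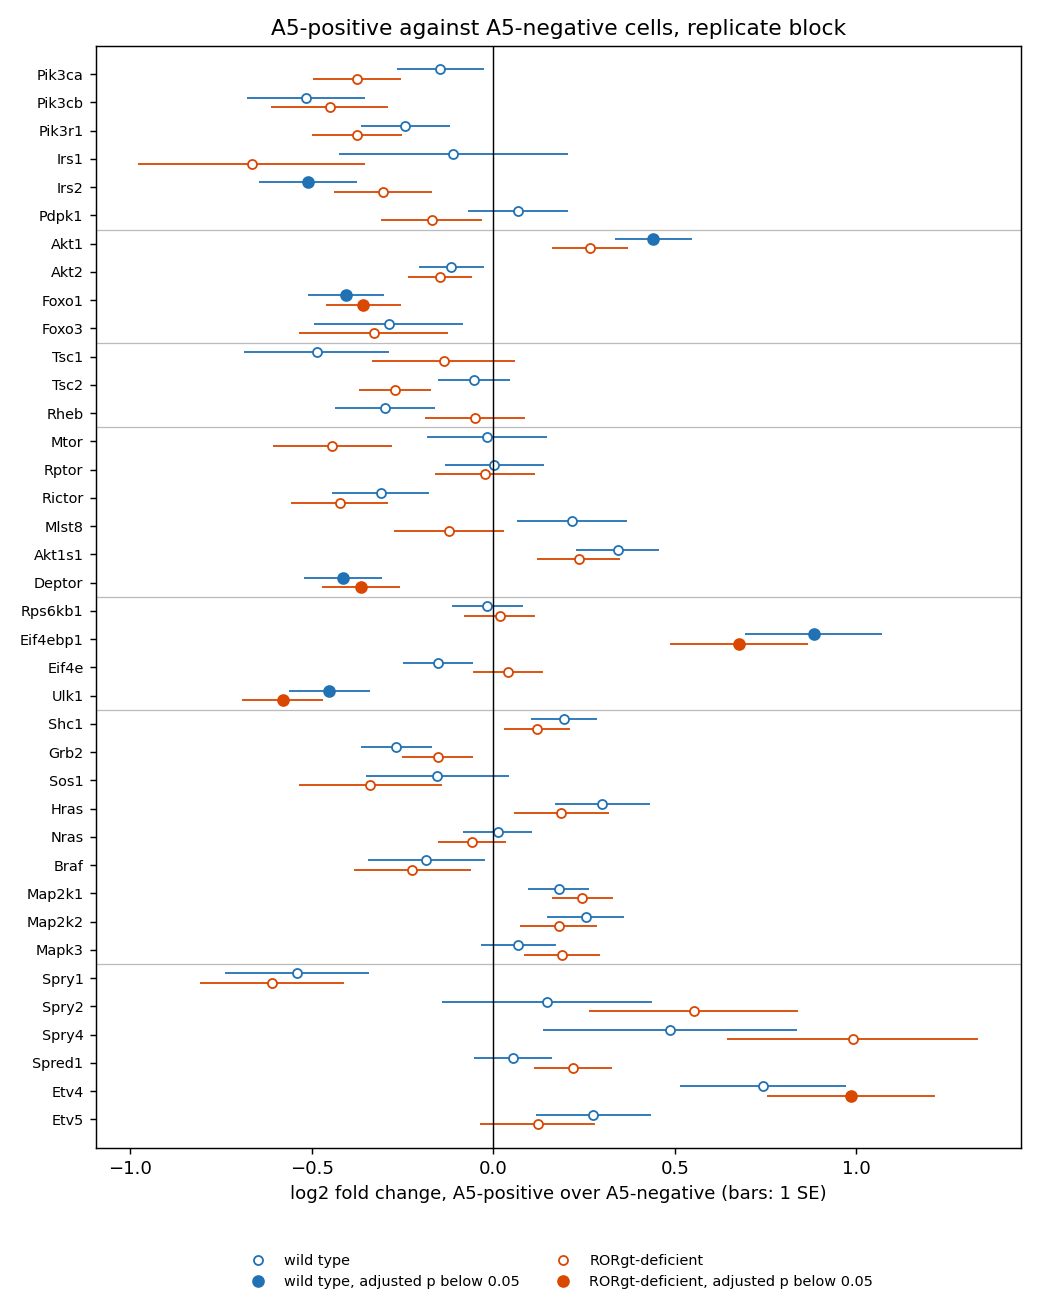
Change from A5-NEG to A5-POS cells for each of the 38 genes as a log2 fold change with bars of 1 SE, from the fit with the library number as a block, in WT (blue) and RORgt-deficient (orange) mice, 3 libraries per group. Filled points passed an adjusted p of 0.05, which were 6 genes in WT and 5 in RORgt-deficient mice.

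Among the PI3K genes, Irs2, whose promoter stretch above holds CACGTG, was lower in A5-POS cells. Its levels in libraries 1 to 3 were 526, 622 and 694 CPM in WT A5-NEG and 335, 457 and 508 CPM in WT A5-POS cells. In RORgt-deficient mice they were 812, 941 and 745 CPM in A5-NEG and 655, 718 and 651 CPM in A5-POS cells. The A5-POS libraries lay below the A5-NEG libraries in both genotypes, without overlap. The change was -0.50 ± 0.17 in WT cells (edgeR adjusted p = 0.126) and passed with the block (-0.51 ± 0.14, adjusted p = 0.0311). In RORgt-deficient cells it was -0.30 ± 0.17 (edgeR adjusted p = 0.306, and 0.142 with the block). The blocked WT call was lost without WT A5-NEG library 1 (0.0718), 2 (0.0567) or 3 (0.149) or WT A5-POS library 1 (0.14) or 2 (0.102), with the adjusted p in brackets. None of the other 5 PI3K genes passed. Those were the catalytic subunits Pik3ca and Pik3cb, the regulatory subunit Pik3r1, the adaptor Irs1 and the AKT-activating kinase gene Pdpk1, with blocked changes of -0.52 ± 0.16 (Pik3cb) to 0.07 ± 0.14 (Pdpk1) in WT and -0.66 ± 0.31 (Irs1) to -0.17 ± 0.14 (Pdpk1) in RORgt-deficient cells. Pik3r1 was at 38.3, 38.1 and 38.3 CPM in WT A5-POS libraries, below the 41.1, 44.3 and 50.5 CPM of WT A5-NEG libraries.

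Akt1 and Foxo1 moved in opposite directions. Akt1, with TGTTTAC in the promoter stretch above, was at 361, 360.1 and 337 CPM in WT A5-NEG and 544, 478 and 421 CPM in WT A5-POS libraries. In RORgt-deficient mice it was at 366, 332 and 328 CPM in A5-NEG and 454, 354 and 429 CPM in A5-POS libraries. All 3 WT A5-POS libraries were above the WT A5-NEG libraries, whereas RORgt-deficient A5-POS library 2 lay within the A5-NEG range. The change in WT cells was 0.45 ± 0.13 (edgeR adjusted p = 0.0903), and Akt1 rose by 0.44 ± 0.10 with the block (adjusted p = 0.0212). That call was lost without WT A5-NEG library 1 (0.096) or 3 (0.098) or WT A5-POS library 1 (0.083) or 2 (0.0849). In RORgt-deficient cells the blocked change was 0.27 ± 0.10 (edgeR adjusted p = 0.102).

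Foxo1 encodes a transcription factor that AKT keeps inactive. It was at 104, 115 and 126 CPM in WT A5-NEG and 72.0, 83.2 and 108 CPM in WT A5-POS libraries, and at 129, 122 and 144 against 101, 96.0 and 110.1 CPM in RORgt-deficient libraries. The level was lower in A5-POS cells for every library number, and the groups overlapped in WT through A5-POS library 3. Without the block the changes were -0.39 ± 0.15 and -0.36 ± 0.15 (edgeR adjusted p = 0.171 and 0.192). With the block Foxo1 fell in both genotypes, with changes of -0.41 ± 0.10 in WT (edgeR adjusted p = 0.0273) and -0.36 ± 0.10 in RORgt-deficient cells (adjusted p = 0.0374). The blocked WT call was lost without WT A5-NEG library 1 (0.0783), 2 (0.0902) or 3 (0.0865) or WT A5-POS library 1 (0.132) or 2 (0.0941), and without the block it was gained when WT A5-POS library 3 was left out (adjusted p = 0.0394). The RORgt-deficient call was lost without RORgt-deficient A5-NEG library 1 (0.118) or 3 (0.0677) or RORgt-deficient A5-POS library 1 (0.0513), 2 (0.0723) or 3 (0.158). Exons of Foxo1 share 7.78% of their bases with an antisense gene, and strand use in counting is not given in the sources used here. Akt2 (blocked changes -0.11 ± 0.09 and -0.15 ± 0.09 in WT and RORgt-deficient cells) and Foxo3 (-0.29 ± 0.21 and -0.33 ± 0.21) did not pass.

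Of the TSC and RHEB genes, 0 of 3 passed in either genotype, with or without the block (edgeR), and Tsc1 in WT and Tsc2 in RORgt-deficient cells had an unadjusted p below 0.05 in both fits. Tsc1, the scaffold of the complex that switches RHEB off, was at 14.1, 18.6 and 15.8 CPM in WT A5-NEG and 11.1, 12.7 and 10.6 CPM in WT A5-POS libraries, lower without overlap (-0.49 ± 0.20 with the block, edgeR adjusted p = 0.124). In RORgt-deficient mice its levels overlapped, at 17.7, 16.2 and 19.0 and 11.3, 15.5 and 22.5 CPM. Tsc2, the GTPase-activating partner, was at 135, 125 and 129 CPM in RORgt-deficient A5-NEG and 108, 107 and 108 CPM in A5-POS libraries, lower without overlap (-0.27 ± 0.10 with the block, adjusted p = 0.0822), whereas WT levels overlapped at 113, 134 and 125 and 109, 135 and 115 CPM. Exons of Tsc2 share 7.2% of their bases with Pkd1 on the opposite strand. Rheb was also lower without overlap in WT A5-POS libraries, at 143, 139 and 144 CPM against 179, 162 and 180.4 CPM in WT A5-NEG libraries. Its RORgt-deficient levels overlapped, at 211, 274 and 187 CPM in A5-NEG and 215, 255 and 178 CPM in A5-POS libraries.

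Within the mTOR complexes, Deptor, which encodes an inhibitory subunit of both, was lower in A5-POS cells of both genotypes. It was at 53.9, 60.3 and 70.8 CPM in WT A5-NEG and 39.4, 48.3 and 51.4 CPM in WT A5-POS libraries. In RORgt-deficient mice the levels were 61.5, 74.6 and 64.8 and 47.6, 57.7 and 50.9 CPM. Groups did not overlap in either genotype, and the size of the drop was nearly the same. Unblocked changes were -0.41 ± 0.15 and -0.36 ± 0.15 (edgeR adjusted p = 0.147 and 0.179). With the block Deptor fell, with changes of -0.41 ± 0.11 in WT (edgeR adjusted p = 0.0289) and -0.36 ± 0.11 in RORgt-deficient cells (adjusted p = 0.0404). The WT call was lost without WT A5-NEG library 1 (0.0853) or 3 (0.148) or WT A5-POS library 1 (0.129) or 2 (0.102), and the RORgt-deficient call without RORgt-deficient A5-NEG library 1 (0.108) or 2 (0.0911) or RORgt-deficient A5-POS library 1 (0.0839) or 3 (0.176). The other 5 genes of the complexes did not pass. Akt1s1, which encodes the other inhibitory subunit PRAS40, had a change of opposite sign, from 95.7, 83.9 and 84.7 to 124, 104 and 108 CPM in WT libraries (0.34 ± 0.11 with the block, edgeR adjusted p = 0.0671), without overlap. Mtor, Rptor, Rictor and Mlst8 overlapped between A5-NEG and A5-POS libraries in both genotypes.

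Of the 4 mTORC1 substrate genes, Ulk1 and Eif4ebp1 passed with the block in both genotypes, in opposite directions, and Rps6kb1 and Eif4e did not pass. ULK1 starts autophagy and is held back by mTORC1. The Ulk1 transcript was at 171, 225 and 214 CPM in WT A5-NEG and 126, 169.8 and 150.3 CPM in WT A5-POS libraries. In RORgt-deficient mice it was at 271, 284 and 248 CPM in A5-NEG and 179, 198 and 161 CPM in A5-POS libraries. All A5-POS libraries were below the A5-NEG libraries of their genotype. In RORgt-deficient cells Ulk1 fell by 0.58 ± 0.15 on the log2 scale (95% interval -0.90 to -0.25, edgeR adjusted p = 0.0419), and with the block the adjusted p was 0.00632. Without the block the call was lost without RORgt-deficient A5-NEG library 1 (0.111), 2 (0.125) or 3 (0.0775) or RORgt-deficient A5-POS library 1 (0.126) or 3 (0.178), and with the block it held without each of the 6 libraries in turn (adjusted p 0.012 to 0.0455). In WT cells the change was -0.45 ± 0.15 (edgeR adjusted p = 0.12) and passed with the block (adjusted p = 0.0243), except without WT A5-NEG library 2 (0.0593) or 3 (0.119) or WT A5-POS library 1 (0.103) or 2 (0.0683).

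Eif4ebp1 encodes the repressor that mTORC1 releases from the cap-binding factor eIF4E. Its levels were 33.4, 22.7 and 26.7 CPM in WT A5-NEG and 72.9, 37.6 and 44.9 CPM in WT A5-POS libraries, and 18.9, 20.4 and 24.9 against 46.5, 26.2 and 34.0 CPM in RORgt-deficient libraries. A5-POS libraries were higher without overlap in both genotypes, with the highest value in library 1. The changes were 0.91 ± 0.27 and 0.73 ± 0.27 without the block (edgeR adjusted p = 0.0873 and 0.14). With it Eif4ebp1 rose by 0.88 ± 0.19 in WT (adjusted p = 0.0138) and 0.68 ± 0.19 in RORgt-deficient cells (adjusted p = 0.0328, edgeR). The WT call was lost without WT A5-NEG library 1 (0.0542) or 3 (0.0753) or WT A5-POS library 1 (0.078), and the RORgt-deficient call without RORgt-deficient A5-NEG library 1 (0.078) or RORgt-deficient A5-POS library 1 (0.13) or 3 (0.0987); of these, leaving out WT or RORgt-deficient A5-POS library 1 brought the unblocked change to 0.57 and 0.47, and leaving out RORgt-deficient A5-NEG library 1 the blocked change to 0.38. The S6 kinase gene Rps6kb1 was nearly flat, at 60.2 ± 0.819, 59.6 ± 5.29, 62.0 ± 5.54 and 62.7 ± 5.35 CPM (mean ± SD, n = 3) in the 4 groups in the order above, with a 95% interval for the WT change of -0.27 to 0.24. Eif4e did not pass either (blocked changes -0.15 ± 0.10 and 0.04 ± 0.10).

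In the relay from RAS to ERK, 0 of 9 genes passed in either genotype, with or without the block (edgeR). Without the block 0 had an unadjusted p below 0.05 in either genotype. With it there were 3 of 9 in WT and 1 of 9 in RORgt-deficient cells, against 30.9% and 33% of all genes. The changes were small, from -0.27 ± 0.10 for the adaptor gene Grb2 to 0.30 ± 0.13 for Hras in WT, and from -0.34 ± 0.20 for the exchange factor gene Sos1 to 0.25 ± 0.08 for Map2k1 in RORgt-deficient cells, with the block. The MEK genes Map2k1 and Map2k2 and the ERK1 gene Mapk3 had fitted changes above 0 in both genotypes, and Grb2, Sos1 and Braf, a RAF kinase gene, below 0. Shc1, which encodes an adaptor at growth factor receptors, and Map2k2 were higher in WT A5-POS libraries without overlap, at 129, 134 and 130.4 against 105, 123 and 118 CPM and at 212, 184 and 205 against 171, 160.5 and 172 CPM.

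Among the 6 ERK feedback targets, Etv4 passed in RORgt-deficient cells and none passed in WT. The blocked change was above 0 for 5 of 6 in both genotypes, and below 0 for Spry1. Of the 15 tested genes in the further list of ERK feedback and early targets, 12 had a blocked change below 0 in each genotype. The medians of that list were -0.43 in WT and -0.16 in RORgt-deficient cells. With the block 1 of the 15 rose and 3 fell (Dusp5, Ier3 and Myc) in WT, against 8.76% and 5.59% of all genes. The RORgt-deficient counts were 2 and 0, against 10.1% and 7.54%. Etv4, which encodes an ETS factor induced by ERK, was at 28.2, 21.4 and 22.5 CPM in WT A5-NEG and 58.1, 33.9 and 30.8 CPM in WT A5-POS libraries. In RORgt-deficient mice it was at 15.2, 11.5 and 16.4 and 37.5, 15.5 and 35.9 CPM. WT groups did not overlap, while RORgt-deficient A5-POS library 2 lay within the A5-NEG range. The unblocked changes were 0.77 ± 0.32 and 1.04 ± 0.32 (edgeR adjusted p = 0.203 and 0.0911). With the block Etv4 rose in RORgt-deficient cells (0.99 ± 0.23, adjusted p = 0.0161), and was just short of the threshold in WT (0.74 ± 0.23, adjusted p = 0.0519). The blocked call was lost without RORgt-deficient A5-NEG library 1 (0.0981) or RORgt-deficient A5-POS library 1 (0.0684) or 3 (0.0987), and without the block a call was gained when RORgt-deficient A5-POS library 2 was left out (adjusted p = 0.0109).

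Spry1, the brake on RAS activation, was at 73.7, 82.3 and 97.9 CPM in WT A5-NEG and 38.5, 61.3 and 76.8 CPM in WT A5-POS libraries. In RORgt-deficient mice it was at 121, 115 and 108 and 80.4, 79.5 and 64.9 CPM. A5-POS libraries were lower in all 6 pairs of the same number, without overlap in RORgt-deficient cells. The blocked changes of -0.54 ± 0.20 and -0.61 ± 0.20 did not pass (edgeR adjusted p = 0.0923 and 0.056). Spry1 exons share 24.43% of their bases with an unnamed transcript, Gm42922, on the opposite strand. Spry2 and Spry4 rested on 48 to 244 counts per library, and neither they nor Spred1 and Etv5 passed.

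With the library number blocked, Irs2 and Rheb passed as higher in RORgt-deficient than in WT mice in A5-POS cells. In A5-NEG cells Irs2 and Rheb were also higher without passing, and so was Nras in both sorted fractions. Without the block 0 of 38 members passed in A5-POS cells, where 0.006% of all genes passed (edgeR). At an unadjusted p below 0.05 there were 7 of 38, against 15% of all genes, and DESeq2 called 2, against 3.67%. With the block 2 members rose and 0 fell, where 2.26% of all genes rose and 1.76% fell. Levels did not overlap for 4 members that were higher and 3 that were lower, against 9.04% and 9.01% of all genes. In A5-NEG cells 0 of 38 passed without the block (edgeR), where 0.006% of all genes passed, with 8 at an unadjusted p below 0.05, against 5.09% of all genes, and 0 by DESeq2, against 0.126%. With the block 0 passed again, and the share of all genes was also 0.006%. At an unadjusted p below 0.05 there were then 10 of 38, against 15.1% of all genes, and DESeq2 with the block called 5, against 5.37%. Levels did not overlap there for 8 higher and 4 lower members, against 7.33% and 8.26% of all genes. Leaving out WT A5-POS library 3 kept 2 blocked calls in A5-POS cells, and leaving out any other library of that comparison left 0. The fitted change was above 0 for 25 of 38 members in A5-POS and 28 of 38 in A5-NEG cells, with medians of 0.12 and 0.13 against 0.00 over all genes in both. The summed fibroblast markers given above also did not overlap between the genotypes in A5-POS cells, and their part in these results was not tested.

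**Figure D4:**
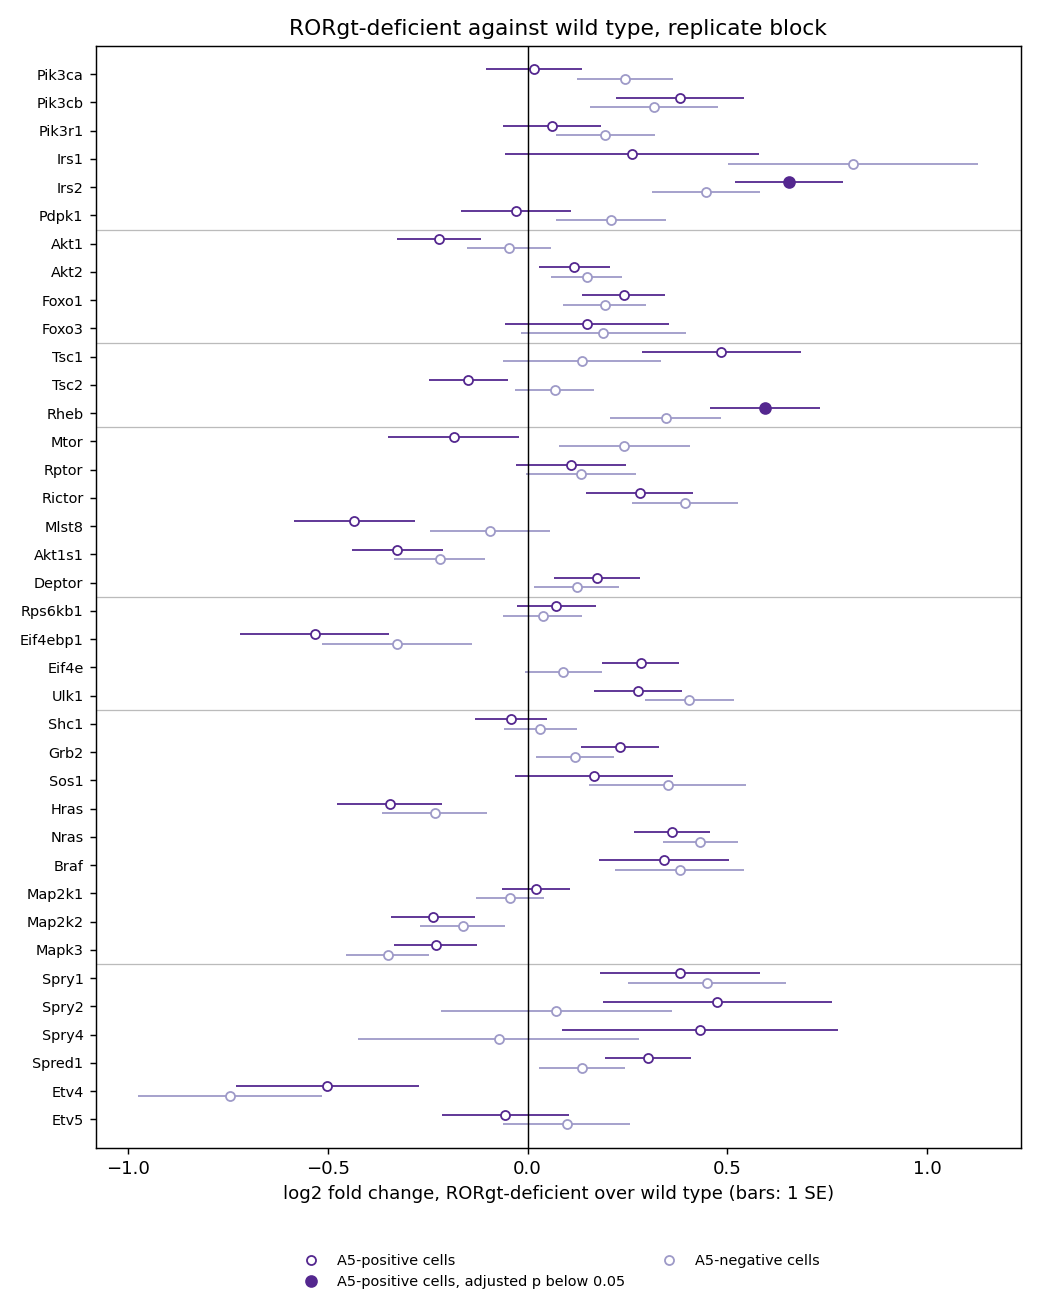
Change from WT to RORgt-deficient mice for each of the 38 genes as a log2 fold change with bars of 1 SE, from the fit with the library number as a block, in A5-POS (dark) and A5-NEG (light) cells, 3 libraries per group. Filled points passed an adjusted p of 0.05, which were Irs2 and Rheb in A5-POS cells, and no gene passed in A5-NEG cells.

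For Irs2, the 3 RORgt-deficient A5-POS libraries (675 ± 37.7 CPM, mean ± SD, n = 3) were above the 3 WT A5-POS libraries (433 ± 89.1 CPM). The change was 0.64 ± 0.17 (edgeR adjusted p = 0.178), and with the block Irs2 rose by 0.65 ± 0.14 (adjusted p = 0.0377). The call was lost without RORgt-deficient A5-POS library 1 (0.079), 2 (0.137) or 3 (0.0763) or WT A5-POS library 1 (0.162) or 2 (0.121). In A5-NEG cells the RORgt-deficient libraries were higher without overlap (833 ± 99.6 against 614 ± 84.2 CPM). The blocked change of 0.45 ± 0.14 did not pass (edgeR adjusted p = 0.192, and 0.779 without the block). Irs1, at far lower levels, was at 4.47, 5.24 and 4.51 CPM in RORgt-deficient A5-NEG and 2.03, 3.11 and 3.00 CPM in WT A5-NEG libraries, also without overlap (0.82 ± 0.31, adjusted p = 0.266). Its exons share 30.86% of their bases with a gene on the opposite strand, Gm9747.

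Rheb encodes the GTPase that activates mTORC1. It was at 143, 139 and 144 CPM in WT A5-POS and 215, 255 and 178 CPM in RORgt-deficient A5-POS libraries, and at 179, 162 and 180.4 against 211, 274 and 187 CPM in A5-NEG libraries. The RORgt-deficient libraries were higher without overlap in both fractions, with the highest value in library 2. The change in A5-POS cells was 0.61 ± 0.16 (edgeR adjusted p = 0.178), and with the block Rheb rose by 0.59 ± 0.14 (adjusted p = 0.043), a call lost without RORgt-deficient A5-POS library 1 (0.0884), 2 (0.161) or 3 (0.0763) or WT A5-POS library 1 (0.172) or 2 (0.164). In A5-NEG cells the blocked change was 0.35 ± 0.14 (adjusted p = 0.275). Its regulator genes did not follow one direction. Tsc1 in A5-POS cells had a blocked genotype change of 0.49 ± 0.20 (adjusted p = 0.166) with overlapping levels, and Tsc2 one of -0.15 ± 0.10 (adjusted p = 0.382), with RORgt-deficient libraries just below the WT libraries.

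Nras, a RAS gene, was the member with the largest share of its sum of squares in the genotype. It was at 126, 141 and 149.9 CPM in WT A5-NEG and 174, 204 and 185 CPM in RORgt-deficient A5-NEG libraries. In A5-POS cells it was at 139, 143 and 137 and 159, 205 and 177 CPM. RORgt-deficient libraries were higher without overlap in both fractions, by 0.43 ± 0.09 in A5-NEG (edgeR adjusted p = 0.157 with the block) and 0.36 ± 0.09 in A5-POS cells (adjusted p = 0.0576), neither past the threshold. Without the block the edgeR adjusted p was 0.779 in A5-NEG and 0.227 in A5-POS cells. Hras had fitted changes below 0 (-0.23 ± 0.13 and -0.35 ± 0.13), with overlapping levels.

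In A5-NEG cells, Ulk1 was higher in RORgt-deficient libraries without overlap (268 ± 18.3 against 203 ± 28.6 CPM). Its change was 0.40 ± 0.11 with the block (edgeR adjusted p = 0.173, and 0.779 without the block). Mapk3 was lower without overlap, at 71.1, 62.1 and 76.8 against 91.0, 80.1 and 96.3 CPM (-0.35 ± 0.10, adjusted p = 0.185), and so was Etv4, at the levels given above (-0.74 ± 0.23, adjusted p = 0.2). Spry1 was higher (0.45 ± 0.20, adjusted p = 0.319). These transcripts did not pass in edgeR, and the values for Mapk3, Etv4 and Spry1 are also from the fit with the block. In A5-POS cells Mlst8, which encodes a subunit of both mTOR complexes, was at 12.8, 17.4 and 17.4 CPM in RORgt-deficient and 23.1, 21.2 and 19.4 CPM in WT libraries, lower without overlap (-0.43 ± 0.15, adjusted p = 0.116). Its exons share 22.48% of their bases with Bricd5 on the opposite strand. Eif4e was higher (0.28 ± 0.10, adjusted p = 0.108), and Map2k2 lower (-0.24 ± 0.11, adjusted p = 0.192), both without overlap.

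**Figure D5:**
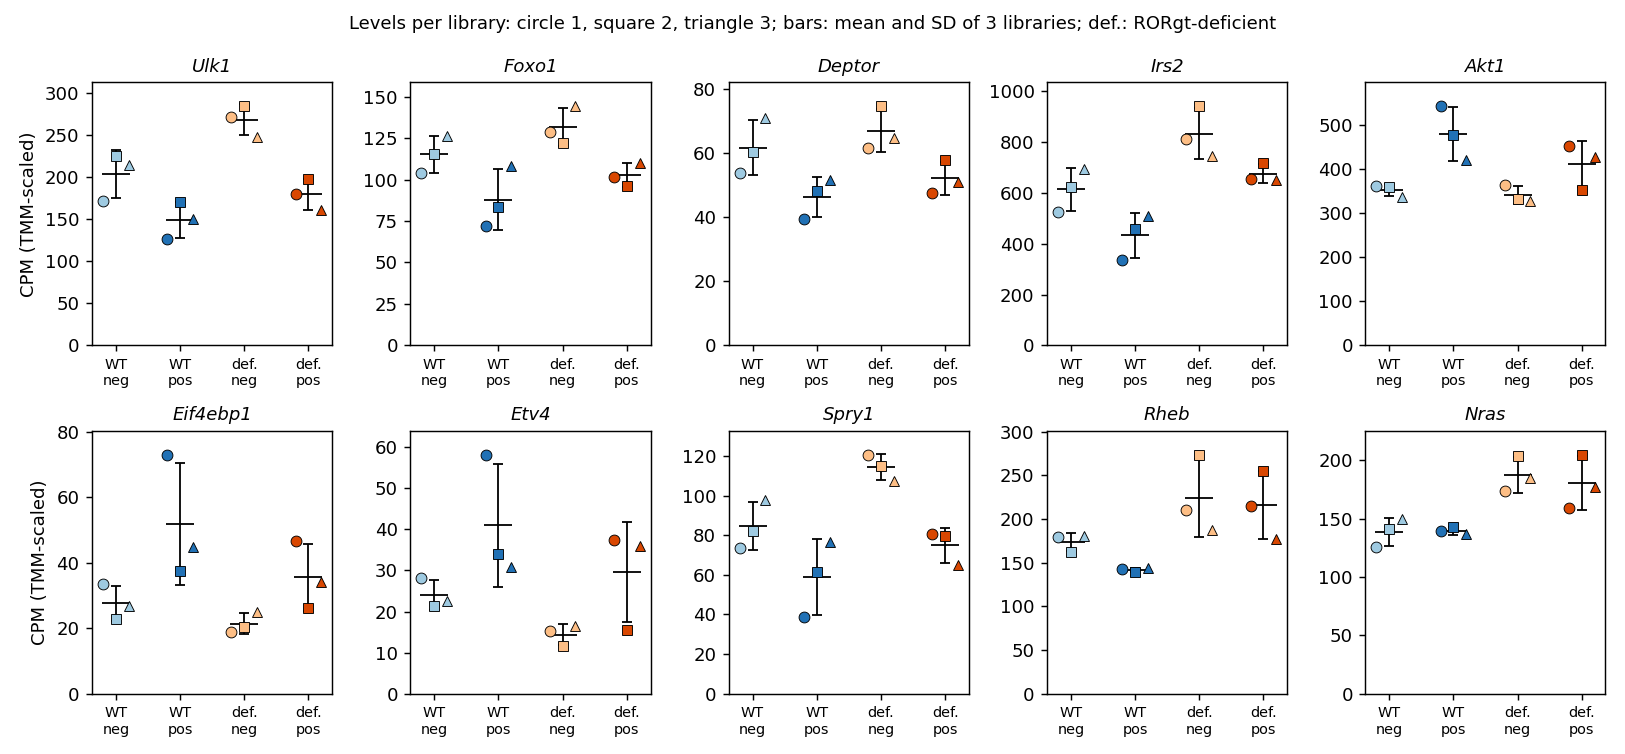
Level in CPM of 10 of the genes in every library (circle, library 1; square, library 2; triangle, library 3) of the 4 groups, with the mean and SD of 3 libraries as bars and each axis starting at 0. Ulk1 and Deptor are lower in A5-POS than in A5-NEG cells of both genotypes, Eif4ebp1 is higher, and Nras and Rheb are higher in RORgt-deficient than in WT libraries of both fractions.

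No member's response to the sort was shown to differ between the genotypes. For the interaction 0 of 38 members passed, with or without the block (edgeR), and 0% of all genes passed in either fit. At an unadjusted p below 0.05 there were 0 members in both fits, against 2.75% of all genes without and 5.46% with the block, and DESeq2 called 0, against 0.0481%. The 3 members with the smallest p were Tsc2, Mlst8 and Tsc1, with differences (the A5 effect in RORgt-deficient cells minus that in WT cells) of -0.22 ± 0.16, -0.31 ± 0.24 and 0.39 ± 0.31 and an edgeR adjusted p of 1 after rounding for each. In WT and RORgt-deficient cells, the A5 effects were -0.05 ± 0.11 and -0.27 ± 0.11 for Tsc2, 0.20 ± 0.17 and -0.11 ± 0.17 for Mlst8, and -0.50 ± 0.22 and -0.10 ± 0.22 for Tsc1. For Ulk1 the difference was -0.13 ± 0.21 with a 95% interval of -0.58 to 0.33, and for Akt1 it was -0.18 ± 0.19 (-0.59 to 0.23).

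Of 92 further genes of these pathways in 4 lists, 90 were tested; Rragb had too few counts and Spry3 had no match in the table. Without the block 2 of 90 passed, both in RORgt-deficient cells and both lower in A5-POS cells, in the comparison where 5.52% of all genes passed. They were the docking protein genes Gab1, which fell by 0.55 from 163 ± 9.65 to 111 ± 7.59 CPM (edgeR adjusted p = 0.0174, but 0.0699 without RORgt-deficient A5-NEG library 1 and 0.0968 without A5-POS library 3), and Gab2, which fell by 1.04 from 11.5 ± 1.60 to 5.61 ± 0.868 CPM (adjusted p = 0.0475, and 0.0622 to 0.173 without each of the 6 libraries in turn). In the other 4 comparisons 0 of 90 passed without the block, with 18 of 90 (WT A5 effect), 14 and 7 (genotype in A5-POS and A5-NEG) and 1 (interaction) at an unadjusted p below 0.05, where all genes gave 20.5%, 15%, 5.09% and 2.75%. With the block, 7 rose and 7 fell from A5-NEG to A5-POS in WT, and 5 rose and 9 fell in RORgt-deficient cells. Of all genes, 8.76% rose and 5.59% fell in WT and 10.1% rose and 7.54% fell in RORgt-deficient cells. The blocked change was below 0 for 48 of the 90 in WT and for 62 of the 90 in RORgt-deficient cells. The medians were -0.02 and -0.15, against 0.03 and -0.01 over all genes. The cyclin D1 gene Ccnd1 rose in both (1.02 ± 0.15 and 0.997 ± 0.15, edgeR adjusted p = 0.00297 and 0.00195), as did Prr5, an mTOR complex 2 subunit (1.64 ± 0.29 and 1.09 ± 0.29, adjusted p = 0.00592 and 0.0269). Ccnd1 held without each library in turn in both genotypes and Prr5 in WT, whereas the RORgt-deficient Prr5 call was lost without RORgt-deficient A5-NEG library 1 (0.145) or 3 (0.062) or A5-POS library 1 (0.132) or 3 (0.0753). The genes that fell in both genotypes were Gab2, Fnip1, Sesn2, which encodes a stress-induced inhibitor of mTORC1, and Phlpp1, which encodes an AKT phosphatase. With single libraries left out, their blocked WT calls held in 1, 2, 1 and 0 of 6 runs, in that order. Their RORgt-deficient calls held in 3, 2, 2 and 4 of 6. Of the 14 blocked WT calls, 10 held without WT A5-POS library 3 and 2 to 4 without any other WT library. Of the 14 in RORgt-deficient cells, 14 and 12 held without A5-POS or A5-NEG library 2, 7 and 4 without A5-NEG library 3 or 1, and 3 and 2 without A5-POS library 3 or 1.

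In the list of ERK feedback and early targets, 6 of the 15 tested genes rose and 0 fell with the block between WT and RORgt-deficient A5-POS cells, and 0 passed without it. Of all genes, 2.26% rose and 1.76% fell with the block, and the median was 0.52 over the 15 against 0.00 over all genes. The 6 were the AP-1 factor gene Fosl1 (0.79 ± 0.17, from 139.7 ± 30.6 to 243 ± 66.9 CPM, edgeR adjusted p = 0.0378), Phlda1 (0.81 ± 0.18), Spsb1 (0.67 ± 0.14), Myc (0.52 ± 0.13), Ier3 (0.52 ± 0.12) and the ERK phosphatase gene Dusp6 (0.47 ± 0.11), with adjusted p of 0.0378 to 0.0451. Of the 6 feedback targets among the 38 members, 0 passed in that comparison, with a median of 0.34 with the block. In A5-NEG cells 0 of the 15 passed in either fit (edgeR), with 2 at an unadjusted p below 0.05 without and 9 with the block, where all genes gave 5.09% and 15.1%, and the list median was 0.28 with the block. In the list of mTORC1 regulators and outputs, 28 of the 36 tested genes had a blocked genotype change below 0 in A5-POS cells. The median of that list was -0.23 against 0.00 over all genes. Levels did not overlap for 6 that were lower and 0 that were higher, against 9.01% and 9.04% of all genes. Castor1, which encodes an arginine sensor upstream of mTORC1, was the 1 gene of that list that passed with the block, lower in RORgt-deficient A5-POS cells (-0.60 ± 0.13, edgeR adjusted p = 0.0395). Of these 7 calls, 5 held without WT A5-POS library 3 (Fosl1, Phlda1, Myc, Ier3 and Castor1), and 0 without any other library of the comparison. Early targets of ERK overlap with transcripts of dissociation stress, and Egr1 was in both lists; 0 of 10 dissociation-stress genes passed between the genotypes in A5-POS cells, with a median of 0.24 with the block. In the same comparison the 9 fibroblast markers had a median of 1.08 with the block, 1 of them passed, and their summed levels did not overlap; their part in these calls was not tested.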

How the data were processed

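RNA of sorted epithelial cells was sequenced in 12 libraries, 3 in each of 4 groups, each from 2 or 3 pooled mice, so p-values measure the spread between such pools. The libraries were made with a low-input SMART-Seq kit, per the labels' protocols. Reads were trimmed with Trimmomatic 0.36, aligned with STAR and counted with featureCounts on the mouse build mm10, per the submitters' processing notes; the sources used here do not give strand use or annotation release. The authors deposited raw counts per gene symbol for 55341 rows. Of these, 26 symbols had been turned into dates (0.110% to 0.128% of a library's counts) and were left out, since they name no gene.

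Groups and library numbers were taken from the labels. The level of the targeted gene is not reported here. Libraries of 1 group differed by far more than counting error. The members and gene lists were chosen with earlier results of these data known. Genes were kept by filterByExpr (16677), scaled by TMM (factors 0.919 to 1.08) and tested with edgeR 4.0.16 quasi-likelihood F tests over all 4 groups, with Benjamini-Hochberg adjustment over all tested genes and a threshold of 0.05, in R 4.3.3. Log2 fold changes are given with standard errors, and CPM uses TMM-scaled library sizes, except summed markers. The code was tested on simulated data. Same-numbered libraries of different groups deviated together (18 pairs, correlation 0.104 to 0.716, all above 0.1; 36 other pairs, median -0.194; 9230 genes), so the library number was also fitted as a block; the labels describe pooling per sequencing run. Named genes are those passing in either fit, and the 3 members with the smallest p of each comparison. Other members were described by role with values chosen after they were seen. As alternatives, the fit was repeated with the block, with each library left out, unfiltered, with at least 5 CPM in 3 libraries (stricter filter), with RLE scaling, and in DESeq2 1.42.0. Exon lengths, overlaps and gene positions came from GENCODE annotation of GRCm38, and promoters from RefSeq for GRCm38.p6.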

Additional observations from a re-analysis of the deposited data

How the results depend on the processing

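The counts of members passing in edgeR depended on the model. From A5-NEG to A5-POS in WT cells, 0 passed in the fit of group means, 1 with no filter, 4 by DESeq2, and 0 with RLE size factors or the stricter filter. In RORgt-deficient cells the count was 1, with 2 by DESeq2 and 2 with no filter. For the genotype in A5-POS cells it was 0, and 2 by DESeq2. With the replicate number as a block the counts were 6 and 5 for the sort in WT and RORgt-deficient cells and 2 for the genotype in A5-POS cells, and 0 for the genotype in A5-NEG cells and for the interaction. Added after seeing the data, the block gave 7, 6 and 3 with RLE size factors, 10, 14 and 5 with DESeq2, and 9, 10 and 3 with the stricter filter, in the same order, and 5 for the genotype in A5-NEG cells with DESeq2. Leaving out single libraries, with and without the block, gave 0 to 9 for the sort in WT, 0 to 9 in RORgt-deficient cells, 0 to 2 for the genotype in A5-POS cells and 0 for the rest. With 1 library left out, the thinner group was assumed to vary like the others. The cause of these moves was not tested. No named gene reversed its direction under any alternative run. The lowest count in a library was 48 for Spry4, 55 for Spry2 and 62 for Irs1, which limits their precision.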
